A study of Mus musculus with 29 samples.

Results

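The question addressed here was whether dietary restriction (DR) acts on the aortic arch transcriptome in the same way in DNA repair-deficient and repair-proficient mice at 22 weeks of age. The quantity was the genotype by diet interaction, that is, the DR minus ad libitum (AL) change in Ercc1 Δ/- mice minus the same change in wild-type (WT, Ercc1 +/+) mice, on the log2 scale. It was computed from 18 of the 29 samples: 4 WT AL, 5 WT DR, 4 Ercc1 Δ/- AL and 5 Ercc1 Δ/- DR mice, each sample being the arch of a separate animal. The other 11 samples were 10 arches of 6 weeks and the 22-week WT AL female with replicate number 003, which the study left out for its low counts. All animals were F1 hybrids of C57BL6J and FVB, so WT and Ercc1 Δ/- mice were littermates on 1 mixed background, and both sexes were used (1 female and 3 males in WT AL, 2 and 3 in WT DR, 2 and 2 in Ercc1 Δ/- AL, 2 and 3 in Ercc1 Δ/- DR). Ercc1 Δ/- mice carry 1 null and 1 truncated allele in every cell of the body, not in vascular cells alone. All mice were housed singly, and restricted mice of both genotypes received the same AIN93G pellets as AL mice in smaller amounts from 7 weeks of age, in steps down to 30% less food from 9 weeks onward. The diets thus differed in amount and not in composition. They also differed in timing, since the study gave food shortly before the dark period, while AL mice had unlimited access. The part of feeding time in the results was not tested.

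ERCC1 forms with XPF an endonuclease that cuts damaged DNA strands in nucleotide excision repair and in the repair of DNA crosslinks, and mice with reduced ERCC1 function age fast, in the vasculature as elsewhere. DR lowers growth signalling and shifts tissues towards fat oxidation and maintenance, and it delays many features of ageing. In an ageing arterial wall, smooth muscle cells lose contractile genes while matrix remodelling, calcification-related and macrophage genes become more active.

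The 18 libraries held between 921167 and 9616382 counts on genes. Depth moved with genotype, with 2660422 to 9616382 counts in WT and 921167 to 3855444 in Ercc1 Δ/- mice, and its part in the results was not tested apart from the fit on thinned counts given with the limits. Ercc1 lay between 25.6 and 35.8 CPM (gene counts scaled to a common library size by trimmed mean of M values) in all 9 WT samples and between 7.67 and 21.4 in all 9 Ercc1 Δ/- samples, so the genotype labels matched the gene. The summed level of 27 smooth muscle contractile genes was 63740 to 77920 CPM in WT and 32930 to 50690 CPM in Ercc1 Δ/- mice, so genes of the labelled tissue were abundant and moved with genotype. In bulk tissue, fewer cells of a type and less RNA per cell cannot be told apart. Several libraries stood apart in markers of other cells or programmes. In WT AL replicate 018, the only female of its group, genes of antigen presentation were high. In Ercc1 Δ/- DR replicate 016 the sum of serous cavity macrophage markers was 9272 CPM against 2475 to 3642 CPM in the other 17. The sum of 20 fat markers ran from 2072 CPM to 6775 CPM in WT DR replicate 017 (median of its group 2890), and the sum of 4 red blood cell markers reached 889 CPM in Ercc1 Δ/- AL replicate 013 and 873 CPM in Ercc1 Δ/- DR replicate 006 (medians of their groups 126 and 101). The only tested skeletal muscle marker was at 39.4 CPM in replicate 013 and at most 6.51 CPM elsewhere. The sum of 8 cardiac markers was 147 to 303 CPM in WT and 224 to 618 CPM in Ercc1 Δ/- mice, with a median interaction of 0.84. These 8 genes did not move as a set. Tnnt2 was at 41.3 to 162 CPM in WT and 166 to 499 CPM in Ercc1 Δ/- mice. Myh6 ran from 0.53 to 118 CPM in WT and from 0 to 146 CPM in Ercc1 Δ/- mice, with 0 in Ercc1 Δ/- AL replicates 013 and 026. Myl2, Nppa and Nppb each had under 10 counts over the 18 libraries, and the granulocyte genes Ly6g and Mpo were at 0. The part of these markers in the results was not tested.

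Of 12353 genes tested, 12 (0.0971%) had an interaction at an adjusted p of at most 0.05 (edgeR's quasi-likelihood test, Benjamini-Hochberg). In 5 of them (0.0405% of genes tested) the change with DR was more negative in Ercc1 Δ/- than in WT mice: Spp1, Lgals3, Timp1, Mgp and Celf4. In 7 (0.0567%) it was more positive: Plvap, Gm830, Cgnl1, Col6a6, Gbp4, Garre1 and Nlrc5. Leaving out 1 library moved the count of 12 between 2 (without Ercc1 Δ/- AL replicate 004) and 18 (without WT AL replicate 012), males alone gave 4 and DESeq2 35, and Lgals3 was the only gene of the 12 that passed in all 32 alternatives, with Spp1 passing in all but that on thinned counts. At an unadjusted p under 0.05 there were 1077 genes (8.72%), 572 more positive and 505 more negative. Genes that responded alike were counted apart, since a p that misses the threshold does not show equal responses: a gene counted as alike when it passed the test of the mean DR effect over both genotypes and when the 90% confidence interval of its interaction lay inside 1.5-fold in either direction. By this rule 203 genes (1.64% of those tested) responded alike, 89 of them higher (0.72%) and 114 lower (0.923%) on DR. Over all 12353 genes the median interaction was -0.01 and its median standard error (SE) was 0.23 on the log2 scale, and the 90% interval of 6057 genes (49%) lay inside 1.5-fold.

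The diet effect within each genotype, called from 1.2-fold at the same adjusted threshold, comprised 158 genes in WT (1.28%), 42 higher (0.34%) and 116 lower on DR (0.939%), and 202 in Ercc1 Δ/- mice (1.64%), 80 higher (0.648%) and 122 lower (0.988%). These contrasts share no sample. Called in both and in the same direction were 25 genes (0.202% of those tested), 7 higher (0.0567%) and 18 lower (0.146%), which make up 15.8% of the WT list and 12.4% of the Ercc1 Δ/- list, and 1 gene (0.0081%), Lgals3, was called in both in opposite directions. The direction was the same in the other genotype for 81.7% of the genes called in WT and 81.2% of those called in Ercc1 Δ/- mice. Their size was smaller there than in the contrast that chose them: the genes called in WT had a median change of 0.77 in WT and 0.31 along the same direction in Ercc1 Δ/- mice, and those called in Ercc1 Δ/- mice 0.59 and 0.16 in WT. Across all genes tested, which are not independent replicates, the diet changes of the 2 genotypes correlated at Pearson's r = 0.33 and Spearman's rho = 0.26. An interaction was called for 7 of the 158 and 6 of the 202 genes, so most genes called in a single genotype were not shown to respond differently in the other.

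**Figure D1:**
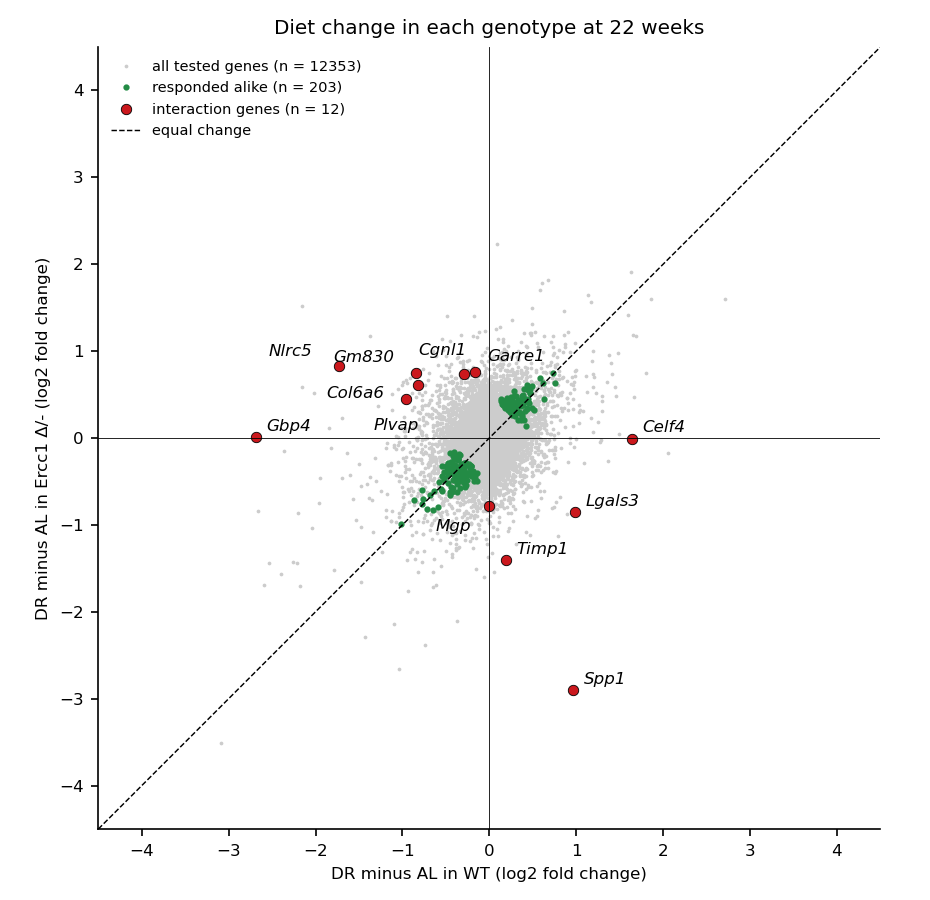
Log2 fold change with DR in WT (horizontal axis) against Ercc1 Δ/- mice (vertical axis) at 22 weeks for the 12353 tested genes (grey), the 203 genes that responded alike (green) and the 12 interaction genes (red, named). The dashed line marks equal change; Spp1 lies farthest from it, and Lgals3 lies in the quadrant of higher in WT and lower in Ercc1 Δ/- mice.

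The largest interaction belonged to Spp1 (chr5:104582165-104589235, GRCm39), which encodes osteopontin, a secreted matrix and cytokine-like protein of macrophages, bone and injured smooth muscle. In Ercc1 Δ/- AL mice Spp1 was at 68.5, 38.8, 54.5 and 63.5 CPM, and in Ercc1 Δ/- DR mice at 12.1, 6.41, 12.4, 3.33 and 7.24 CPM. In WT mice it was at 1.05, 1.88, 1.86 and 0.619 CPM on AL and at 2.9, 3.15, 1.41, 1.95 and 3.3 CPM on DR. The Ercc1 Δ/- diet groups did not overlap, every Ercc1 Δ/- AL sample was above all others, and the WT diet groups overlapped at a level of 4 to 20 raw counts per library. Spp1 fell by 2.90 on the log2 scale in Ercc1 Δ/- mice (adjusted p = 1.2e-06) and differed by 0.97 in WT mice (adjusted p = 0.32), which gave an interaction of -3.87 ± 0.51 (SE), with a 95% confidence interval from -4.91 to -2.82 and an adjusted p of 6.6e-04 (edgeR).

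Lgals3 (chr14:47605208-47623624) encodes galectin-3, a galactoside-binding lectin of phagocytes. It was at 17.1, 12.4, 19.7 and 17.2 CPM in WT AL mice and at 32.1, 34.3, 23.7, 41.0 and 30.4 CPM in WT DR mice. The order was the other way in Ercc1 Δ/- mice, with 73.5, 48.5, 53 and 69.6 CPM on AL and 40.9, 24.6, 30.0, 30.0 and 46.5 CPM on DR. Diet groups did not overlap in either genotype, and the DR groups of the 2 genotypes spanned nearly the same range. Lgals3 rose by 0.99 ± 0.17 in WT (adjusted p = 0.0029) and fell by 0.85 in Ercc1 Δ/- mice (SE 0.18, adjusted p = 0.013), an interaction of -1.84 ± 0.25 (95% interval -2.35 to -1.33, adjusted p = 6.6e-04, edgeR).

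Timp1 (chrX:20736316-20740976), a secreted inhibitor of matrix metalloproteinases, was at 8.13 to 13.8 CPM in all 9 WT samples whatever the diet. In Ercc1 Δ/- mice it was at 44.1, 30.8, 49.2 and 60.1 CPM on AL and at 21.7, 10.7, 24.8, 17.8 and 9.83 CPM on DR. The Ercc1 Δ/- diet groups did not overlap, and 2 of the 5 DR samples lay within the WT range. Timp1 fell by 1.41 in Ercc1 Δ/- mice (adjusted p = 0.0011) and differed by 0.20 in WT (adjusted p = 0.76), an interaction of -1.60 ± 0.30 (adjusted p = 0.035).

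The 250 bases before the RefSeq start site are shown for Spp1, Lgals3 and Timp1, the genes that fell in Ercc1 Δ/- mice and had an entry in the promoter table, as the sequences nearest to the strongest result. They are on GRCm38.p6, all on the plus strand, at chr5:104434861-104435110 for the upstream start of Spp1, chr14:47373610-47373859 for Lgals3 and chrX:20869916-20870165 for Timp1. Capitals mark any match, on either strand, to an AP-1 motif (TGANTCA), an antioxidant response motif (TGACNNNGC), a RUNX motif (ACCACA) or a STAT motif (TTCNNNGAA).
Spp1: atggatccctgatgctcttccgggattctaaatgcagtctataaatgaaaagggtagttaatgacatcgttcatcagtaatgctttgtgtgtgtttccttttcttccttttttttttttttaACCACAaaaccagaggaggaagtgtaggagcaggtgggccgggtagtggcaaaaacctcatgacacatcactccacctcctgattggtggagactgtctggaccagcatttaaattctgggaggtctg
Lgals3: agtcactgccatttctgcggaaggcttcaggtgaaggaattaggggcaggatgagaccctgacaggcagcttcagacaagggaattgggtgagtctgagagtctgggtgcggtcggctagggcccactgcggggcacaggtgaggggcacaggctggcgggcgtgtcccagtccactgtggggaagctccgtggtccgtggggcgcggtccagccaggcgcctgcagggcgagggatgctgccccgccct
Timp1: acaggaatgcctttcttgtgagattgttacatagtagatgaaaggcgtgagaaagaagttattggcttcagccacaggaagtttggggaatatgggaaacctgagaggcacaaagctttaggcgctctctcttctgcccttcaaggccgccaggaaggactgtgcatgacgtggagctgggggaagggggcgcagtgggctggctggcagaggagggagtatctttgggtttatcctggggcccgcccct
The Spp1 window holds 1 match, to the RUNX letters, 128 bases before the start, and the windows of Lgals3 and Timp1 hold none of the 4 motifs. Among 32851 windows of the same length in the table, 6.75% hold the AP-1 letters, 10.2% the antioxidant letters, 14.0% the RUNX letters and 7.02% the STAT letters. A match is a description of letters and not a binding site, and the absence of a match says nothing of any factor. Of the 12 interaction genes, 6 had an entry in the table. Celf4, Garre1, Gbp4, Mgp, Nlrc5 and Plvap had none.

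Mgp (chr6:136849433-136852821) encodes matrix Gla protein, an abundant product of arterial smooth muscle that inhibits calcification of the vessel wall. Its level was 1331 to 1391 CPM in WT AL and 1227 to 1520 CPM in WT DR mice, against 3209, 2878, 3675 and 3594 CPM in Ercc1 Δ/- AL and 2084, 1919, 2396, 1830 and 1451 CPM in Ercc1 Δ/- DR mice. The WT groups lay on top of each other (log2 change 0.00) and the Ercc1 Δ/- groups were apart (Mgp fell by 0.79, adjusted p = 1.9e-04). The interaction was -0.79 ± 0.15 (adjusted p = 0.035), the smallest of these 5 in size at the highest level of expression.

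Celf4 (chr18:25610508-25887427), an RNA-binding regulator of splicing known mainly from neurons, differed in the other way: its level moved with diet in WT mice. It was at 3.16, 2.5, 2.09 and 1.96 CPM in WT AL and at 6.17, 7.88, 6.89, 8.14 and 7.93 CPM in WT DR mice, without overlap. Ercc1 Δ/- samples were at 12.2 to 20.9 CPM on AL and 13.3 to 26.4 CPM on DR, above every WT sample. Celf4 rose by 1.64 in WT (adjusted p = 7.2e-04) with a change of -0.01 in Ercc1 Δ/- mice, an interaction of -1.65 ± 0.33 (adjusted p = 0.041). That interaction passed in 3 of 18 fits with 1 library left out.

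Plvap (chr8:71948674-71964506), which forms the diaphragms of endothelial fenestrae and caveolae, led the genes whose change was more positive in Ercc1 Δ/- mice. It was at 31.1, 54.5, 36.6 and 31.8 CPM in WT AL and at 21.2, 23.2, 20.3, 26.7 and 14.7 CPM in WT DR mice, without overlap. Ercc1 Δ/- mice were at 30.6, 33.9, 21.2 and 25.7 CPM on AL and at 20.4, 55.6, 27.4, 49.6 and 31.6 CPM on DR, where the diets overlapped and the highest values came from the 2 females of the DR group. Plvap fell by 0.95 in WT (adjusted p = 0.0011) and differed by 0.45 in Ercc1 Δ/- mice (adjusted p = 0.20), an interaction of 1.41 ± 0.23 (adjusted p = 0.0095), and in males alone it was 0.96 (adjusted p = 0.36).

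Col6a6 (chr9:105564724-105705561), a chain of microfibrillar type VI collagen, and Gm830 (chr4:95336022-95375727), a long noncoding RNA, had the same form. Col6a6 was at 27.4, 73.8, 44.3 and 35 CPM in WT AL, 16.5, 24.0, 38.7, 33.9 and 25.3 CPM in WT DR, 27.4, 32.2, 21.2 and 21.6 CPM in Ercc1 Δ/- AL and 26.8, 69.5, 15.0, 48.1 and 27.9 CPM in Ercc1 Δ/- DR mice. Diets overlapped in both genotypes, and the highest values again came from females, so the sex term bears on this gene: its interaction was 1.43 ± 0.27 (adjusted p = 0.035) and 0.84 in males alone (adjusted p = 0.53). Gm830 was at 26.1 to 49.8 CPM in WT AL and 18.0 to 22.8 CPM in WT DR mice, against 9.55 to 15.9 CPM and 14.1 to 28.0 CPM in Ercc1 Δ/- mice, where the groups overlapped. It fell by 0.84 in WT (adjusted p = 0.0097) and differed by 0.75 in Ercc1 Δ/- mice (adjusted p = 0.11), an interaction of 1.59 ± 0.29 (adjusted p = 0.034). On DR, the Gm830 ranges of the 2 genotypes overlapped.

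Cgnl1 (chr9:71533791-71678884), a scaffold of endothelial and epithelial junctions, and Garre1 (chr7:33936132-34012994), a Rac-binding protein, rose on DR in Ercc1 Δ/- mice. Garre1 was at 39.2, 45.4, 41.7 and 39.2 CPM in Ercc1 Δ/- AL and at 76.0, 72.7, 85.3, 51.1 and 68.3 CPM in Ercc1 Δ/- DR mice, without overlap, and at 45.2 to 63.3 CPM in WT mice with overlapping diets. Its changes were 0.76 in Ercc1 Δ/- (adjusted p = 0.0057) and -0.16 in WT mice, and its interaction was 0.93 ± 0.18 (adjusted p = 0.041). With 1 library left out, the Garre1 interaction passed in 2 of 18 fits (adjusted p up to 0.17, edgeR). Cgnl1 was at 223, 250, 198 and 232 CPM in Ercc1 Δ/- AL, and at 236, 432, 395, 479 and 309 CPM in Ercc1 Δ/- DR mice, of which replicate 006 at 236 CPM lay within the AL range. In WT it was at 240 to 317 CPM on AL and 192 to 309 CPM on DR, and its interaction was 1.03 ± 0.19 (adjusted p = 0.035).

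The last 2 genes belong to the interferon-gamma programme: Gbp4 (chr5:105263633-105287609), a guanylate-binding GTPase, and Nlrc5 (chr8:95160984-95253900), a transactivator of major histocompatibility complex (MHC) class I genes. Gbp4 was at 13.4, 59.9, 10.9 and 6.19 CPM in WT AL, 2.36, 3.15, 6.36, 5.21 and 1.82 CPM in WT DR, 10.8, 10.3, 6.06 and 5.41 CPM in Ercc1 Δ/- AL and 4.47, 7.48, 6.51, 10.0 and 3.62 CPM in Ercc1 Δ/- DR mice. Its interaction of 2.69 ± 0.51 (adjusted p = 0.036) rested on WT AL replicate 018, at 59.9 CPM: without that library it was 1.74 (adjusted p = 0.24). Nlrc5 was at 4.48, 11.5, 2.78 and 2.47 CPM in WT AL, 0.726 to 3.25 CPM in WT DR, 2.27 to 5.88 CPM in Ercc1 Δ/- AL and 2.14 to 10.4 CPM in Ercc1 Δ/- DR mice, 2 to 92 raw counts per library. Its interaction was 2.56 ± 0.52 (adjusted p = 0.0497) and 2.06 without replicate 018 (adjusted p = 0.33).

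**Figure D2:**
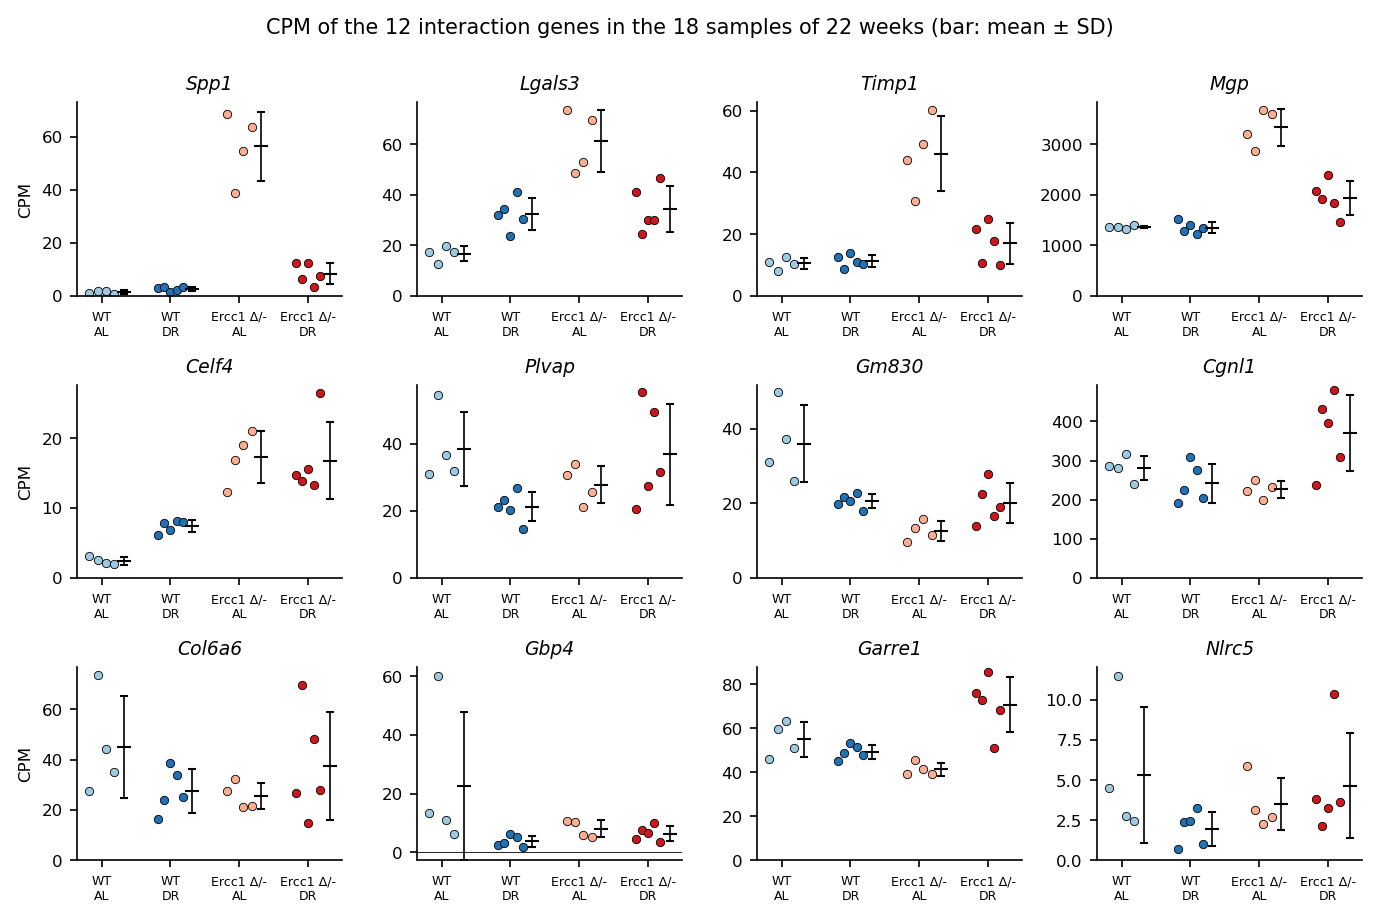
CPM of the 12 interaction genes in each of the 18 samples at 22 weeks, by genotype and diet (points, samples; bars, mean ± SD; each panel has its own linear axis). The diet groups of Ercc1 Δ/- mice are apart in Spp1, Lgals3, Timp1, Mgp and Garre1, and a single WT AL sample at 59.9 CPM sets the WT AL mean of Gbp4.

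The threshold fell within a run of close p-values. Just inside it were Celf4 and Nlrc5. Just outside were Gpx1, a glutathione peroxidase (interaction -0.54, adjusted p = 0.060), Slc35d1 (-0.94), Pkp4 (0.67), Antxr1 (0.71), Lrp8 (-1.58), Gpnmb, a lysosomal glycoprotein of lipid-laden macrophages (-0.95), Itpr1 (0.55) and Tmem176a (-1.19, adjusted p = 0.075).

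The same numbers can be read as the genotype difference on each diet. For 8 of the 12 genes the Ercc1 Δ/- minus WT difference was smaller in size on DR than on AL. It went from 5.49 on AL to 1.62 on DR for Spp1, from 1.97 to 0.12 for Lgals3, from 2.17 to 0.57 for Timp1, from 1.31 to 0.52 for Mgp and from -1.64 to -0.05 for Gm830. For Plvap, Cgnl1, Garre1 and Nlrc5 the difference changed sign and was larger in size on DR, for Plvap from -0.63 to 0.78. On AL, 10 of the 12 genes were called for genotype against 13.3% of all genes tested, in a contrast that shares its samples with the interaction. In the 10 arches of 6 weeks, all on AL and not part of the interaction, the genotype test called 121 genes (0.98%), and the 12 genes had adjusted p-values from 0.17 to 0.97 (edgeR). Of them, 3 had an unadjusted p under 0.05: Gm830 (0.43) and Col6a6 (0.43) toward higher and Lgals3 (-0.40) toward lower levels in Ercc1 Δ/- mice, in each case opposite to the difference on AL at 22 weeks. At that age Lgals3 was at 20.9 to 36.5 CPM in WT and 17.4 to 23.3 CPM in Ercc1 Δ/- mice, Mgp at 1514 to 2846 and 1786 to 2387 CPM, and Spp1 at 0.85 to 12.9 CPM over both genotypes.

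A panel of 14 genes that the study plotted or named held Ercc1 itself and genes of senescence, interferon signalling, oxidative stress, inflammation and matrix remodelling. It drew on results of these samples and so is no independent evidence of direction. The median interaction of the 14 genes was -0.53, and it stayed between -0.61 and -0.48 in all alternatives tried. Of the 14, 9 had an unadjusted p under 0.05, each more negative in Ercc1 Δ/- mice, where 4.09% of all genes had such a p in that direction, and 2, Timp1 and Lgals3, passed over all genes. In Ercc1 Δ/- mice 8 of the 14 were called lower on DR, against 0.988% of all genes tested. Among them were Col8a1, a short-chain collagen of the subendothelium (fell by 1.48), Mmp3 or stromelysin-1 (fell by 1.36), Cd68, a phagocyte lysosomal glycoprotein (fell by 1.22), Vcam1, a leukocyte adhesion molecule (fell by 1.09), and Srxn1, which repairs oxidised peroxiredoxins (fell by 0.53). In WT mice these 5 differed by -0.56, -0.01, -0.38, -0.41 and -0.01, with no call, and their interactions, -0.92, -1.35, -0.84, -0.68 and -0.52, did not pass over all genes (adjusted p from 0.14 to 0.51). Cdkn1a, the cell cycle inhibitor p21, was at 35.6 to 65.4 CPM in WT and 154 to 221 CPM in Ercc1 Δ/- mice on both diets, with an interaction of 0.04 ± 0.23.

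Gene groups around these genes were described by their medians and by the number of members at an unadjusted p under 0.05, for which the background was 4.63% of genes more positive and 4.09% more negative. Of 12 lipid-associated macrophage genes, 6 were more negative in Ercc1 Δ/- mice (Spp1, Lgals3, Gpnmb, Apoe, Cd68 and Ctsd) and 0 more positive, with a median of -0.32. Spp1 and Lgals3 are interaction genes already described, and Cd68 is counted in the panel and among the lysosomal genes too. The gene groups thus share members, and their counts are not separate evidence. On DR, 4 of the 12 lipid-associated genes fell in Ercc1 Δ/- mice and 1 rose in WT mice, against 0.988% and 0.34% of all genes tested. The summed level of the 12 did not fall, with a median of 3953 CPM in Ercc1 Δ/- AL and 4553 CPM in Ercc1 Δ/- DR mice. In each group this sum was highest in the library with the highest sum of fat markers, and the part of fat in it was not tested. Of 31 lysosomal genes, 7 were more negative and 0 more positive, with a median of -0.19, led by the cathepsin genes Ctsc (-0.54) and Ctsb and by Cd68 (-0.84). Of 15 resident macrophage markers, 3 were more negative, among them C1qa (-0.67) and C1qc of the first complement component, with a median of -0.48. In Ercc1 Δ/- mice 6 of these markers fell and in WT mice 1, against 0.988% and 0.939% of all genes tested. The summed level of the resident markers was 447 to 582 CPM in WT AL and 382 to 532 CPM in WT DR mice. It was 628 to 1101 CPM in Ercc1 Δ/- AL and 544 to 778 CPM in Ercc1 Δ/- DR mice. In Ercc1 Δ/- mice the RNA of these markers was thus lower on DR, together with Spp1 and Lgals3, and its part in those results was not tested. In WT mice the markers had a median change of -0.39, while Lgals3 rose. In males alone the median of the resident macrophage markers was 0.21 and that of the lipid-associated genes -0.03, so the first direction turned and the second was close to 0.

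Endothelial markers went the other way. Of 12, 7 were more positive in Ercc1 Δ/- mice and 0 more negative, with a median of 0.62 that stayed between 0.50 and 0.99 in all alternatives. They comprised Tie1 (interaction 1.00) and Tek, which are receptors of the angiopoietin system, Egfl7 (0.66), Esam (0.59), Pecam1, Vwf and Cdh5, and 0 of the 12 passed over all genes. Tie1 was at 50.3, 81.2, 89.5 and 57.7 CPM in WT AL, 58.2, 46.1, 57.8, 51.4 and 28.4 CPM in WT DR, 71.2, 63.9, 47.7 and 41.9 CPM in Ercc1 Δ/- AL and 53, 75.9, 61.9, 102 and 64.1 CPM in Ercc1 Δ/- DR mice, with overlap between diets in both genotypes. The sum of the 12 markers was 977 to 1375 CPM in WT AL, 554 to 1079 CPM in WT DR, 828 to 1333 CPM in Ercc1 Δ/- AL and 1092 to 1680 CPM in Ercc1 Δ/- DR mice. Endothelial RNA thus moved with Plvap and Cgnl1, which endothelial cells express, and its part in those results was not tested.

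Among genes of nutrient state, 23 glucocorticoid and fasting response genes had a median interaction of 0.50 (0.37 to 0.67 over the alternatives), with 6 more positive, among them Fbxo32, a muscle ubiquitin ligase (0.50), Plin4, a lipid droplet protein (0.59), and Txnip, which restrains glucose uptake (0.61), and with 1 more negative. In Ercc1 Δ/- mice 2 of the 23 rose and in WT mice 0, against 0.648% and 0.34% of all genes tested. Of 20 fatty acid oxidation genes, 2 were more positive, among them Cpt1a of mitochondrial fatty acid entry (0.33), with a median of 0.16 that was -0.24 without the sex term and 0.80 in males alone. The fat markers moved with it, from a median of -0.04 to -0.60 and 1.02 under the same alternatives, the sums of both groups were highest in the same library of each group, and the part of fat in these values was not tested. Immediate early genes, transcription factors such as Fosl2 and Nr4a3 that switch on within minutes of a stimulus, including dissection, had a positive interaction in 21 of 23, with a median of 0.51, and 3 had an unadjusted p under 0.05. Without replicates 016 and 018 none of them had such a p, and 19 were positive.

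Of 27 smooth muscle contractile genes, 8 were more positive in Ercc1 Δ/- mice and 1 more negative, among them Ppp1r12b, a myosin phosphatase subunit (0.53), Synpo2 (0.46) and Vcl, vinculin (0.41). The median was 0.11, it was -0.13 in males alone, and 1 of the 27 rose in Ercc1 Δ/- mice, against 0.648% of all genes tested. Of 28 NRF2 and antioxidant genes, 7 were more negative and 0 more positive, with a median of -0.22 that turned to 0.03 in males alone. Gpx1 was at 236 to 267 CPM in WT AL and 267 to 290 CPM in WT DR mice, against 296 to 358 CPM and 228 to 300 CPM in Ercc1 Δ/- mice. It fell by 0.36 in Ercc1 Δ/- mice (adjusted p = 0.017) and differed by 0.17 in WT mice (adjusted p = 0.35). Cytosolic ribosomal protein genes had a median of -0.17 over 78 genes, with 10 more negative and 0 more positive at an unadjusted p under 0.05. The median was -0.07 without Ercc1 Δ/- AL replicate 013, whose summed level was 26230 CPM against a group median of 20640. Genes of the nuclear respiratory chain, heat-shock genes and the citric acid cycle had medians of -0.01, -0.09 and 0.02 with 0 members at an unadjusted p under 0.05 (edgeR), and in males alone of 0.44, -0.25 and 0.69.

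**Figure D3:**
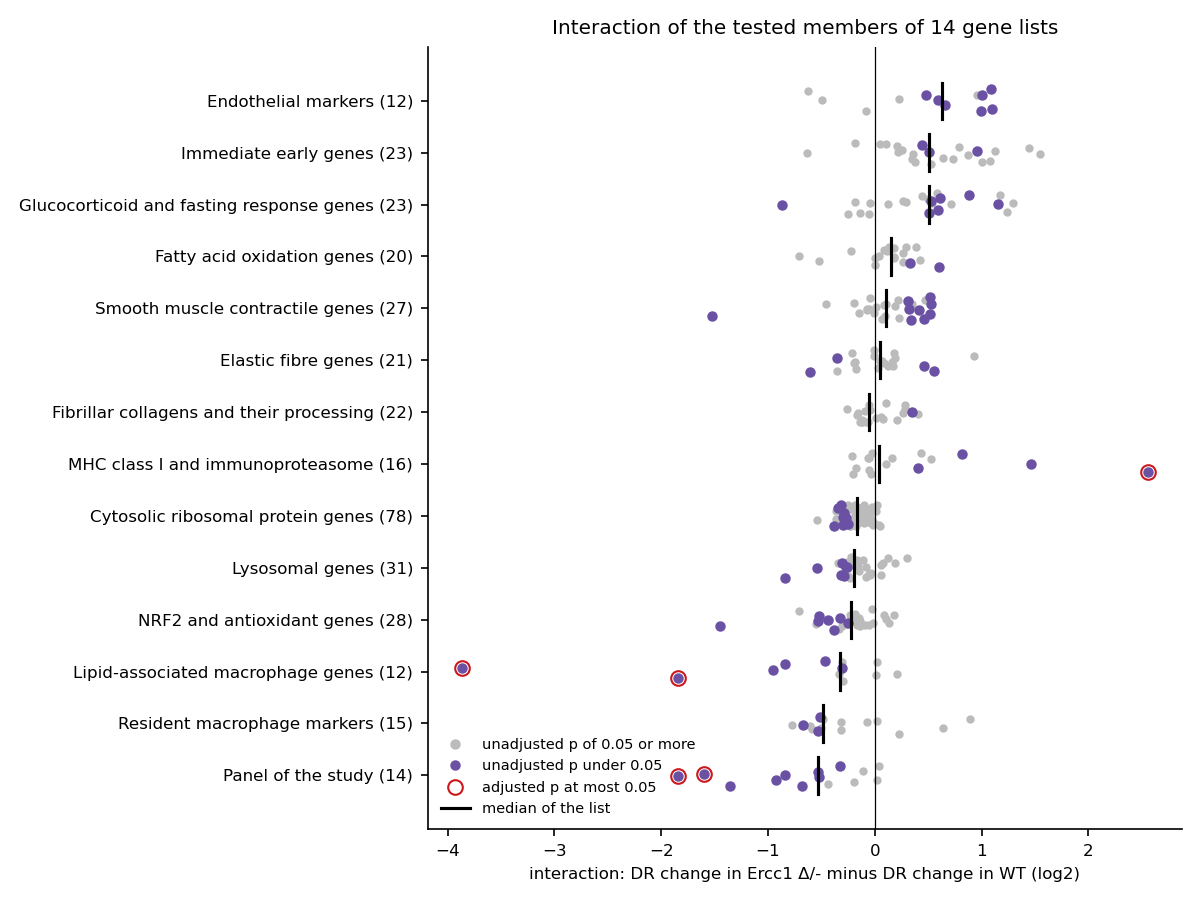
Interaction (log2, Ercc1 Δ/- DR change minus WT DR change) of every tested member of 14 gene groups (points) with the group median (vertical bar); purple points have an unadjusted p under 0.05 and red circles an adjusted p of at most 0.05. Endothelial markers and immediate early genes lie mostly right of 0, with medians of 0.62 and 0.51, and resident macrophage markers mostly left of it, with a median of -0.48.

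The genes that responded alike were led by B2m, the light chain of MHC class I molecules. B2m was at 229, 314, 277 and 256 CPM in WT AL and 211, 159, 222, 230 and 187 CPM in WT DR mice, and at 483, 468, 320 and 395 CPM in Ercc1 Δ/- AL and 293, 229, 240, 283 and 231 CPM in Ercc1 Δ/- DR mice. Ercc1 Δ/- mice started higher, the diets did not overlap there and overlapped narrowly in WT, and B2m fell by 0.45 in WT and by 0.66 in Ercc1 Δ/- mice with an interaction between -0.46 and 0.04 (90% interval). Ergic1, a membrane protein that cycles between endoplasmic reticulum and Golgi, was at 196, 170, 196 and 208 CPM in WT AL, 156, 140, 121, 116 and 131 CPM in WT DR, 114, 134, 136 and 138 CPM in Ercc1 Δ/- AL and 88.8, 96.2, 99.7, 102 and 88.5 CPM in Ercc1 Δ/- DR mice, apart between diets in both genotypes. The other 6 genes lower on DR by the naming rule were Cpxm2, a carboxypeptidase-like protein (mean DR effect -0.74), Itih4, a plasma protein of the inter-alpha-trypsin inhibitor family (-0.69), Pcolce, which speeds the removal of the procollagen C-propeptide (-0.50), Tubb4a, a beta-tubulin (-0.79), Nupr1, a stress-induced chromatin protein (-0.50), and Frzb, a secreted WNT antagonist (-0.69).

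Alike and higher on DR by the naming rule were Arl4a, a small GTPase (mean DR effect 0.51), Clk1, a kinase of splicing factors (0.44), Sparcl1, a matricellular relative of SPARC (0.39), Rhou, a GTPase of the cytoskeleton (0.54), Prodh, which opens proline breakdown (0.70), Pdlim3, a Z-disc protein (0.37), and Mtus1 (0.33). Arl4a, Clk1 and Sparcl1 were also called in each genotype, and Rhou, Prodh, Pdlim3 and Mtus1 were not called in both. Mtus1 met the rule with changes of 0.20 in WT and 0.46 in Ercc1 Δ/- mice. The 90% interval of its interaction, 0.05 to 0.48, excluded 0. Clk1 was at 225, 223, 236 and 260 CPM in WT AL and 339, 318, 288, 290 and 304 CPM in WT DR, and at 220, 217, 223 and 202 CPM in Ercc1 Δ/- AL and 378, 291, 246, 286 and 326 CPM in Ercc1 Δ/- DR mice. The levels of both genotypes were close on each diet and the diets did not overlap. Arl4a likewise was at 46.6 to 60.1 CPM in WT AL and 68.5 to 86.8 CPM in WT DR, and at 47.3 to 55.0 CPM and 61.2 to 86.9 CPM in Ercc1 Δ/- mice. Sparcl1 was at 1416 to 1930 and 1934 to 2645 CPM in WT but at 897 to 1012 and 935 to 1525 CPM in Ercc1 Δ/- mice, so an equal response sat on a genotype difference. Prodh was at 22.6 to 33.7 and 39.2 to 53.6 CPM in WT and at 30.4 to 50.8 and 30.0 to 82.8 CPM in Ercc1 Δ/- mice, where the diets overlapped.

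**Figure D4:**
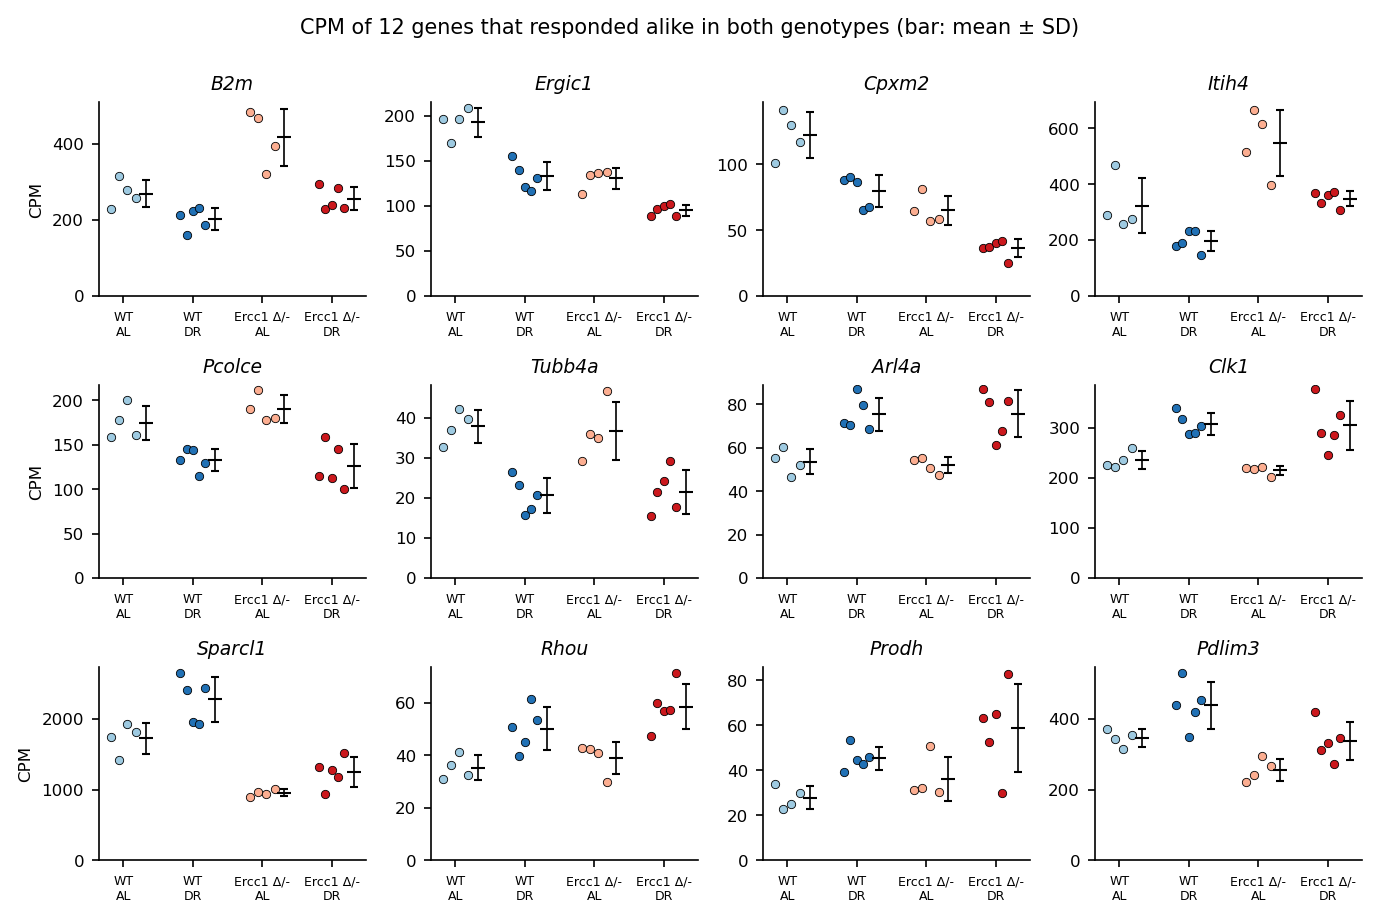
CPM of 12 genes that responded alike in each of the 18 samples at 22 weeks, by genotype and diet (points, samples; bars, mean ± SD; linear axes from 0). The group means of B2m, Ergic1, Cpxm2, Itih4, Pcolce and Tubb4a are lower, and those of Arl4a, Clk1, Sparcl1, Rhou, Prodh and Pdlim3 higher, on DR in both genotypes. The AL ranges of the 2 genotypes do not overlap in B2m, Ergic1, Cpxm2, Sparcl1 and Pdlim3.

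By group, the alike genes included 4 of 16 MHC class I and immunoproteasome genes (Tapbp, B2m, H2-K1 and H2-D1), all lower on DR. These members were picked out after their values were seen, and 0.923% of all genes tested were alike and lower. Of the same 16 genes, 4 were more positive in Ercc1 Δ/- mice at an unadjusted p under 0.05 (edgeR) and 0 more negative. Over all genes 4.63% were more positive at that level, and 1 of the 16 passed the adjusted threshold. H2-K1 and H2-D1, the classical class I heavy chains, had changes of -0.42 and -0.42 in WT and of -0.49 and -0.31 in Ercc1 Δ/- mice. Of 21 elastic fibre genes 4 were alike and lower: Fbln5 (-0.42 in WT and -0.38 in Ercc1 Δ/- mice), Emilin1 (-0.41 and -0.24), Loxl1, a crosslinking oxidase of elastin (-0.31 and -0.49), and Efemp2 (-0.14 and -0.49). Efemp2 met the rule although its interaction, -0.35, had an unadjusted p of 0.015 (90% interval -0.58 to -0.12, edgeR). At an unadjusted p under 0.05, the interactions of Ltbp2 (-0.61), Fbn1, the main microfibril gene (0.56), and Loxl2 (0.46) also differed from 0, and the median of the group was 0.05. Of 22 genes of fibrillar collagens and their processing, Sparc, Pcolce and Crtap were alike and lower, and of 22 endoplasmic reticulum chaperones Calr, Hsp90b1, Pdia6 and Pdia3 were. Among 31 lysosomal genes, 4 (Ctsz, Hexa, Ppt1 and Ctsh) were alike and lower. A more negative change in Ercc1 Δ/- mice at an unadjusted p under 0.05 (edgeR) was found for 7. These classes were not opposed: the 90% intervals of Ctsz (-0.45 to -0.04) and Hexa (-0.54 to -0.03) also lay below 0. The interaction was positive in 6 of the 31. Among sterol synthesis genes, Srebf2 and Msmo1 were alike and lower, while Pmvk was alike and higher (0.32 in WT and 0.38 in Ercc1 Δ/- mice). Single members elsewhere included Igf1r, the insulin-like growth factor receptor (higher, 0.26 and 0.39), and Lama2, a laminin chain (higher, 0.31 and 0.31).

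Of the 461 genes called for the mean DR effect (3.73%), 184 were higher (1.49%) and 277 lower (2.24%) on DR. Of the 461, 44.0% were alike, 5 had an interaction and 253 were neither. Of the 25 genes called in both genotypes in the same direction, 14 were inside the 1.5-fold bound. The interval of 49% of all genes tested lay inside that bound, which is the share to read both values against. Antigen presentation and complement were represented among the 25 by the class II chains H2-Eb1 and H2-Ab1, by B2m and by C1qb, with Lcp1, an actin bundler of leukocytes, and P2ry6 beside them, and the others included the fractalkine gene Cx3cl1, the pericyte and fibroblast marker Cd248, the serine protease Htra1 and the phosphodiesterase Pde4d. Of 9 MHC class II genes, 6 fell in WT (median -2.18 over the 9) and 2 in Ercc1 Δ/- mice (median -1.44), with a median interaction of 0.48 that was -0.01 without replicates 016 and 018, so the difference between the counts is not a tested difference in response. Class I genes gave 7 lower in WT, 2 in Ercc1 Δ/- mice and 10 in the mean effect, with a median interaction of 0.04. Over all genes tested, 0.939% were called lower in WT, 0.988% in Ercc1 Δ/- mice and 2.24% in the mean effect. The interaction and alike genes also differed in plain features. The median of the mean CPM was 92.95 over the 203 alike genes, 26.49 over the 12 interaction genes and 29.34 over all tested genes. The alike rule asks for a narrow interval, and the part of expression level in it was not tested. The 7 more positive genes had a median length from start to end of 76863 bases and the 5 more negative ones of 7071. It was 25894 over all tested genes and 27204 over the 203 alike genes, as a description of few genes.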

How the data were processed

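RNA of single aortic arches had been sequenced after directional library preparation with unique molecular identifiers (UMIs). Per the labels and the study's methods, the authors trimmed reads with fastp 0.23.2, aligned them to GRCm39 with STAR 2.7.10a, collapsed UMIs with UMI-tools 1.1.2, counted genes with HTSeq 2.0.2 and analysed them with DESeq2 1.34.0. The deposited table holds the raw counts of 56748 genes in 29 samples, plus 5 lines of unassigned reads, which were kept out of library sizes and tests. Symbols came from the GENCODE annotation of GRCm39 for 56017 genes.

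A gene was tested if its count exceeded 10 in over 10 of 28 samples (12353 genes). The 18 samples of 22 weeks without replicate 003 were fitted with edgeR 4.0.16 (R 4.3.3; TMM factors, robust quasi-likelihood F test, a term for the 4 groups and 1 for sex), with Benjamini-Hochberg adjusted p-values over all tested genes. Interaction genes needed an adjusted p of at most 0.05, diet genes also a 1.2-fold change, and alike genes a mean diet effect and a 90% interval of the interaction inside 1.5-fold. CPM were scaled over 28 samples. Alternatives used limma 3.58.1 (voom), DESeq2 1.42.0, other scalings, filters, samples and covariates, counts thinned to the shallowest library, and each library left out. Leaving out replicates 016 and 018 together was chosen after seeing the data. The fit was tested on simulated counts with a known interaction.

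The text names the interaction genes (up to 12 in each direction) and the 8 alike genes per direction with the smallest p of the mean effect. It also names the genes that the study plotted or named, and up to 3 members per gene list with the smallest interaction p. Other genes are named only where they make up a count that is given. A few genes that the rule names are not reported here. The members and gene lists were chosen with earlier results of these data known. Each mouse gave 1 sample, so p-values measure the spread between animals, and intervals cover no other source of error.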

Additional observations from a re-analysis of the deposited data

Results flagged for a closer look

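The diet change differed between genotypes, by the interaction term itself, in 12 genes: Spp1 (-3.87), Lgals3 (-1.84), Celf4 (-1.65), Timp1 (-1.60), Mgp (-0.79), Garre1 (0.93), Cgnl1 (1.03), Plvap (1.41), Col6a6 (1.43), Gm830 (1.59), Nlrc5 (2.56) and Gbp4 (2.69), all on the log2 scale.

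Over 160 combinations of 40 named genes and 4 groups, 1 sample stood far from the others in 10, where chance gives about 1 in 20, or 8. WT AL replicate 018 was the highest of its group in Gbp4 (59.9 CPM, next 13.4), Itih4 (469 CPM, next 290.0) and Irf9 (45.8 CPM, next 32.3). WT DR replicate 017 was the highest in Irf7 (8.84 CPM, next 3.58). Among Ercc1 Δ/- AL samples, replicate 013 was the highest in Prodh (50.8 CPM, next 32) and in Mmp3 (54.5 CPM, next 40.6), replicate 026 the lowest in Rhou (29.7 CPM, next 40.9) and replicate 004 the lowest in Ergic1 (114 CPM, next 134). Among Ercc1 Δ/- DR samples, replicate 022 was the highest in Nlrc5 (10.4 CPM, next 3.83) and replicate 029 in Celf4 (26.4 CPM, next 15.6).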

How the results depend on the processing

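The number of interaction genes, 12, was 35 with DESeq2, 21 with limma voom, 39 without a filter on low counts, 3 with replicate 003 added, 5 with all 6 groups in the fit, 4 in males, 2 without the sex term, 22 with a fat score as covariate and 7 without replicates 016 and 018. It was 2 to 18 with 1 library left out, and under 8 without WT AL 018 or 020, WT DR 017 or 021, Ercc1 Δ/- AL 004, 005 or 013, or Ercc1 Δ/- DR 014, 016 or 022. All 12 kept their sign in every alternative.

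For the 158 diet genes of WT the count was 307 without a filter, 99 with replicate 003, 66 with 6 groups, 17 in males, 55 without the sex term, 42 on thinned counts and 46 without 016 and 018 (44 to 204 with 1 library left out, lowest without WT AL 018). For the 202 of Ercc1 Δ/- mice it was 344 with DESeq2, 101 with replicate 003 and 86 in males (78 to 274, lowest without Ercc1 Δ/- AL 026). The 461 genes of the mean effect became 161 in males and 277 on thinned counts. The 203 alike genes became 127 with replicate 003, 33 in males, 121 on thinned counts, 8 inside 1.2-fold and 342 inside 2-fold (131 to 248, lowest without WT AL 018). The 25 genes called in both became 43 with DESeq2, 39 without a filter, 13 with replicate 003, 7 with 6 groups, 2 in males, 8 without the sex term, 41 with the fat score, 8 on thinned counts and 13 without 016 and 018 (8 to 32). The 121 genotype genes of 6 weeks became 265 with DESeq2 and 284 with 6 groups (39 to 137).

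Values near 0 turned sign: the interaction of Ercc1 was -0.024 with voom, -0.074 with replicate 003, -0.0070 with 6 groups, -0.32 in males and -0.0047 without the sex term (-0.136 to 0.165 with 1 library left out), that of Cdkn1a -0.068 on thinned counts (-0.11 to 0.15), that of Irf7 0.41 on thinned counts (-0.57 to 0.24) and that of Irf9 -0.38 to 0.026. The causes were not tested. On thinned counts the interaction of Spp1 was -3.57 (adjusted p = 0.24, edgeR). Values of a few CPM rest on few counts, 4 to 20 per library for Spp1 in WT. No paired analysis was possible because each mouse gave 1 sample and no replicate number is shared between groups.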

Other observations

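Circadian clock genes were among the groups with a diet call in 1 genotype only: of 19, 3 were lower on DR in WT and 0 in Ercc1 Δ/- mice. Over all genes tested, 0.939% were called lower in WT and 0.988% in Ercc1 Δ/- mice. WT AL replicate 012 stood apart, with Ciart at 2.63 CPM against 23.4 to 46.6 CPM in the other WT AL samples. For Hlf the values were 77.7 CPM against 126 to 162 CPM. The part of this library was not tested for the calls within WT. The medians of the 19 genes were -0.38 and 0.01, but members moved in opposite directions, so a median does not measure the size of the response. Dbp changed by -2.04 in WT and -1.04 in Ercc1 Δ/- mice, and Bmal1 by 1.48 and 0.98, all without a call. The interactions of these 2 genes were 1.00 and -0.50. The median interaction of the 19 genes was 0.19 and ranged over the alternatives from 0.10 to 0.36, the latter without WT AL replicate 012. Of the 19, 2 were more positive at an unadjusted p under 0.05 and 0 passed the adjusted threshold (edgeR), so a difference between genotypes was not shown. Genes of the IGF axis had 2 of 13 members more negative at that level, and 30 type I interferon-stimulated genes 2 more negative, with medians of 0.06 (-0.04 to 0.13 over the alternatives) and 0.11 (-0.37 in males to 0.25). De novo lipogenesis, cholesterol synthesis and mitochondrially encoded genes had 0 members at an unadjusted p under 0.05 in either direction (edgeR; medians 0.07 over 19 genes, -0.11 over 22 and -0.09 over 14), and each of these medians also changed sign in at least 1 alternative.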
